A study of Saccharomyces cerevisiae with 24 samples.

Results

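The genes described here encode the translation factors of baker's yeast, *Saccharomyces cerevisiae*. They are 36 genes chosen by name, among them the subunits of the initiation factors eIF1 to eIF5B, the poly(A)-binding protein, helicases and repressors that act on initiation, and the elongation and termination factors. Of these, 33 have a probe set among the 5449 named yeast genes measured. TIF1, TEF1 and EFT1 are not listed in the array annotation used and were not analysed here. The probe sets of TIF2 and EFT2 carry the suffix for several transcripts, so near-identical copies (TIF1 with TIF2, EFT1 with EFT2) cannot be told apart. TEF2, the other copy of TEF1, is not among the 36 genes. It was measured with a probe set of the same suffix, which may read both copies, and is counted with the other cytosolic translation factor genes.

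Cultures of the laboratory strain S288C, for which the labels name no genetic change, were grown at 28 °C in SD, a synthetic minimal medium. They were then moved to 37 °C (the heat series), moved to 10 °C (the cold series) or left at 28 °C (the control series). Each of the 3 series was sampled at 0, 15, 30 and 60 min and at 2, 4, 8 and 24 h, with 1 array each, 24 arrays in all. RNA of the heat samples was amplified with a further kit (Roche) that the control and cold samples did not go through, so an effect of that kit and the heat series cannot be told apart.

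Translation starts when the cap-binding complex eIF4F and the poly(A)-binding protein hold the ends of an mRNA, and eIF3, eIF1, eIF1A and eIF5 prepare the small ribosomal subunit, which receives the initiator tRNA from eIF2. The subunit scans to the start codon with the help of RNA helicases, and eIF5B joins the large subunit. eIF2B recharges eIF2 with GTP and is the step at which many stresses slow translation in yeast, while eIF4E-binding proteins compete with eIF4G for the cap-binding subunit. Elongation factors move the ribosome along the message, and release factors free the finished chain.

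Values are the authors' deposited RMA summaries on the log2 scale, where a change of 1 is a 2-fold difference. Array medians over the yeast genes lay between 10.69 and 10.79. A level below 6.53, the 95th percentile of the mean levels of probe sets of other species, is called dim. Levels are not compared between genes, since a level depends on the probes. As a check of the labels, 19 of 19 general stress genes had a positive change early in heat (median 1.18) and 0 of 19 early in cold (median -1.95). That list was chosen with earlier results of these data known, so the check is not independent of these arrays. At 0 min, 0 of the 33 translation factor genes differed by at least 2-fold between cold and control, against 0.55% of all genes. Between heat and control at 0 min, 18 of the 33 differed by at least 2-fold (54.5%, against 44.0% of all genes), from -4.81 for CDC33 to 1.94 for TIF4631. Across genes this 0 min difference had a Spearman correlation with gene length of 0.42 over the 33 genes and 0.39 over all 5449, all from the same pair of arrays. Changes below are therefore given from each series' own 0 min array.

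As a group, the translation factor genes were lower within the first hour at 37 °C and higher within the first hour at 10 °C. Their median change in heat was -0.30 at 15 min, -0.52 at 30 min and -0.62 at 60 min, then -0.32, -0.22 and -0.24 at 2, 4 and 8 h and -0.40 at 24 h. In the cold series it was 0.19, 0.27 and 0.28 at 15, 30 and 60 min, 0.27, 0.12 and -0.18 at 2, 4 and 8 h, and -0.20 at 24 h. The control stayed between -0.16 and 0 up to 4 h and stood at -0.40 at 8 h and -0.15 at 24 h. The median of all genes lay between -0.07 and 0.04 on every array. The heat median was thus below the start on every later array and lowest at 60 min, and the cold median was above the start from 15 min to 4 h.

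**Figure D1:**
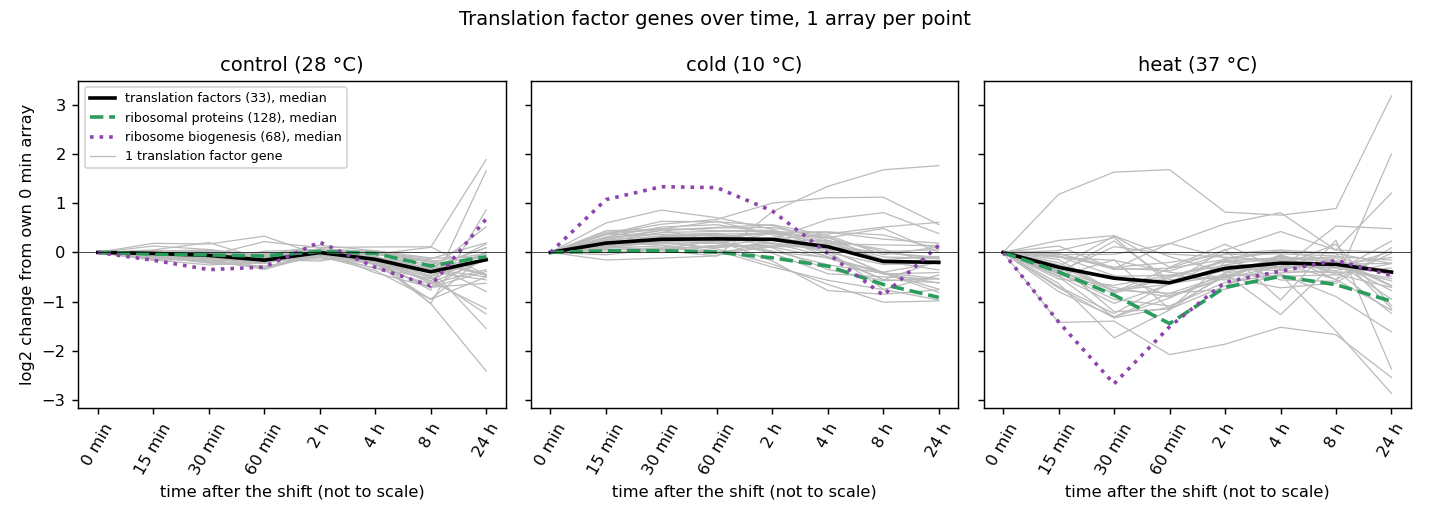
Log2 change from the series' own 0 min array (vertical axis) against time after the shift (horizontal axis, not to scale) in the control, cold and heat series, 1 array per point. Grey lines are the 33 translation factor genes, the black line their median, the dashed line the median of 128 ribosomal protein genes and the dotted line that of 68 ribosome biogenesis genes. The black line reaches -0.62 in heat at 60 min and 0.28 in cold at 60 min.

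Arrays were grouped in time windows, early for 15, 30 and 60 min and late for 2, 4 and 8 h. Set against the control at the same times, 18 of the 33 genes (21.2% of all genes) had all 3 early heat changes below all 3 control changes, and 1 gene (27.1% of all genes), DBP1, had all 3 above. Early in cold, 29 of the 33 genes (31.2% of all genes) lay above the control on all 3 arrays and 1 gene (28.0% of all genes), again DBP1, lay below. The late windows were more mixed. Late in heat 4 genes (13.1% of all genes) were below the control and 2 (18.4% of all genes) above, and late in cold 11 (27.8% of all genes) were above and 2 (23.7% of all genes) below. The control itself was below its start in 31 of the 33 genes at 8 h, against 53.6% of all genes, and this array belongs to the late window of both comparisons.

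The fitted changes subtract the 0 min difference between series, which rests on 1 array per series, and so have wide errors. None of the 33 genes passed limma's test (adjusted p under 0.05 by Benjamini-Hochberg over all 5449 genes) early in heat, where 0.0184% of all genes passed, or late in heat, where 0.0551% passed. None passed early in cold or late in cold either, and no gene of the 5449 did (0.0% in both). At an unadjusted p under 0.05 the counts of translation factor genes were 7 early in heat, 3 late in heat, 0 early in cold and 4 late in cold. Over all 5449 genes these counts were 455, 300, 519 and 1143 in the same order. The median fitted change of the 33 was -0.42 early in heat with 4 positive, -0.09 late in heat with 11 positive, 0.33 early in cold with 31 positive and 0.28 late in cold with 27 positive. The late heat median has no settled direction, since it was 0.07 without 2 h (20 positive), -0.22 without 8 h (5 positive) and 0.15 without the 0 min baseline (18 positive). The medians of all genes in these comparisons lay between 0.01 and 0.05, and between 51.1% and 54.5% of all genes were positive.

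Cold and control started from nearly the same levels, and without subtraction of the 0 min difference the cold changes of many genes passed the same test. Early in cold 17 of the 33 were then higher (16.3% of all genes were), with GCN3 at 0.83 ± 0.16 (SE, adjusted p = 0.00303), NIP1 at 0.90 ± 0.18 (0.00284) and GCD7 at 0.71 ± 0.13 (0.00189). DBP1 alone was lower, at -0.67 ± 0.16 (adjusted p = 0.00718), where 16.5% of all genes were. Late in cold 16 were higher (22.0% of all genes were) and 0 lower (19.0% of all genes were). Part of these values stood at 0 min already, when the cold array lay a median of 0.11 above the control over the 33 genes. At that time it differed from the control by 0.30 for GCD7 and by -0.32 for DBP1.

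Heat and cold set against each other differed for 6 of the 33 genes in the early window. CDC33, NIP1, PRT1, DED1 and SUP45, 5 genes, were lower in heat than in cold (8.42% of all genes were) and DBP1, 1 gene, was higher (7.82% of all genes were). In the late window CDC33 and DED1, 2 genes, were lower in heat (2.72% of all genes were) and 0 higher (3.78% of all genes were). The median difference of the 33 was -0.81 early and -0.37 late, with 31 and 27 genes negative (48.4% and 51.5% of all genes were). These calls depended on single time points. The early count was 1 without 30 min, 3 without 60 min, 3 without 4 h, 9 without 15 min, and 13 without 2 h or without 8 h, CDC33 being called in each of these, and it was 1 with 24 h inside the late window, CDC33 again, and 0 in a fit of the heat and cold series alone. The late count was 0 with 24 h inside the late window, where CDC33 had an adjusted p of 0.0715 and DED1 of 0.762.

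**Figure D2:**
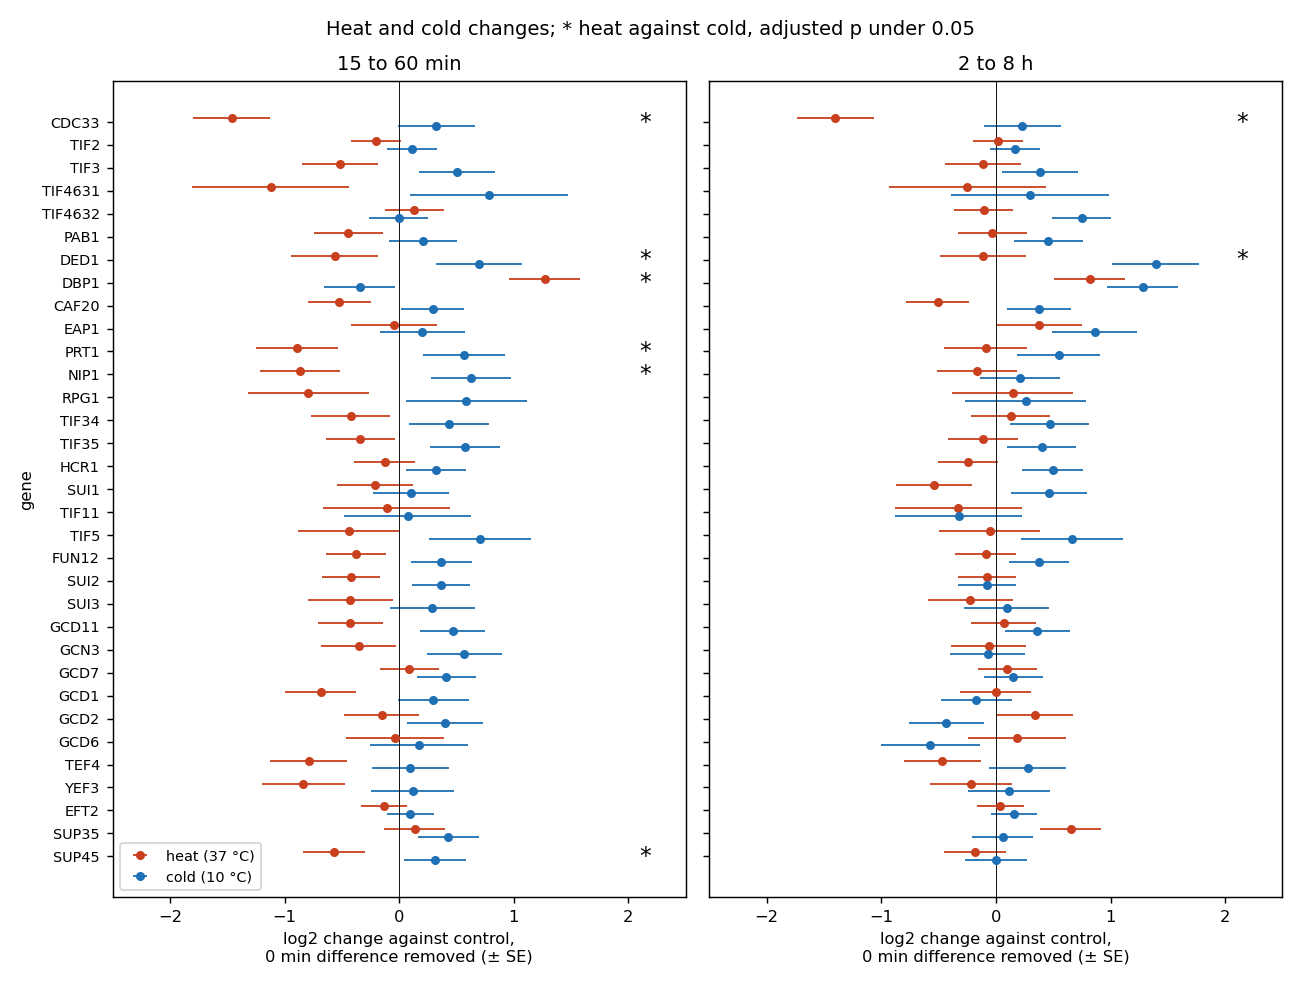
Fitted log2 change against the time-matched control with the 0 min difference removed (horizontal axis, points with standard error bars) for the 33 genes (vertical axis) in heat and in cold, for 15 to 60 min and for 2 to 8 h. A star marks the genes for which heat against cold had an adjusted p under 0.05, 6 in the early and 2 in the late window.

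From the early to the late window most heat values came back towards the start and the cold values split. From early to late in heat 28 of the 33 changes were positive (48.9% of all genes were), with a median of 0.34 (0.23 without 8 h). In that comparison 0 of the 33 passed the test (0.147% of all genes did). The smallest p-values belonged to PRT1 (0.80 ± 0.26, adjusted p = 0.157) and GCD1 (0.68 ± 0.22, adjusted p = 0.159). From early to late in cold DBP1 rose by 1.62 ± 0.22 (adjusted p = 0.00256) and TIF4632 by 0.75 ± 0.18 (adjusted p = 0.0149), 2 genes against 13.2% of all genes. GCD2 fell by 0.83 ± 0.23 (adjusted p = 0.0250), 1 gene against 11.5% of all genes. Both shares were under that of all genes. TIF4632 lost its call without 15 min, 30 min or 4 h (adjusted p from 0.0580 to 0.0869), while DBP1 passed whichever time was left out. With the 24 h arrays inside the late window neither rise passed, at 1.27 for DBP1 (adjusted p = 0.0540) and 0.64 for TIF4632 (adjusted p = 0.0572), and GCD2 alone was called (-1.05, adjusted p = 0.0298).

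**Figure D3:**
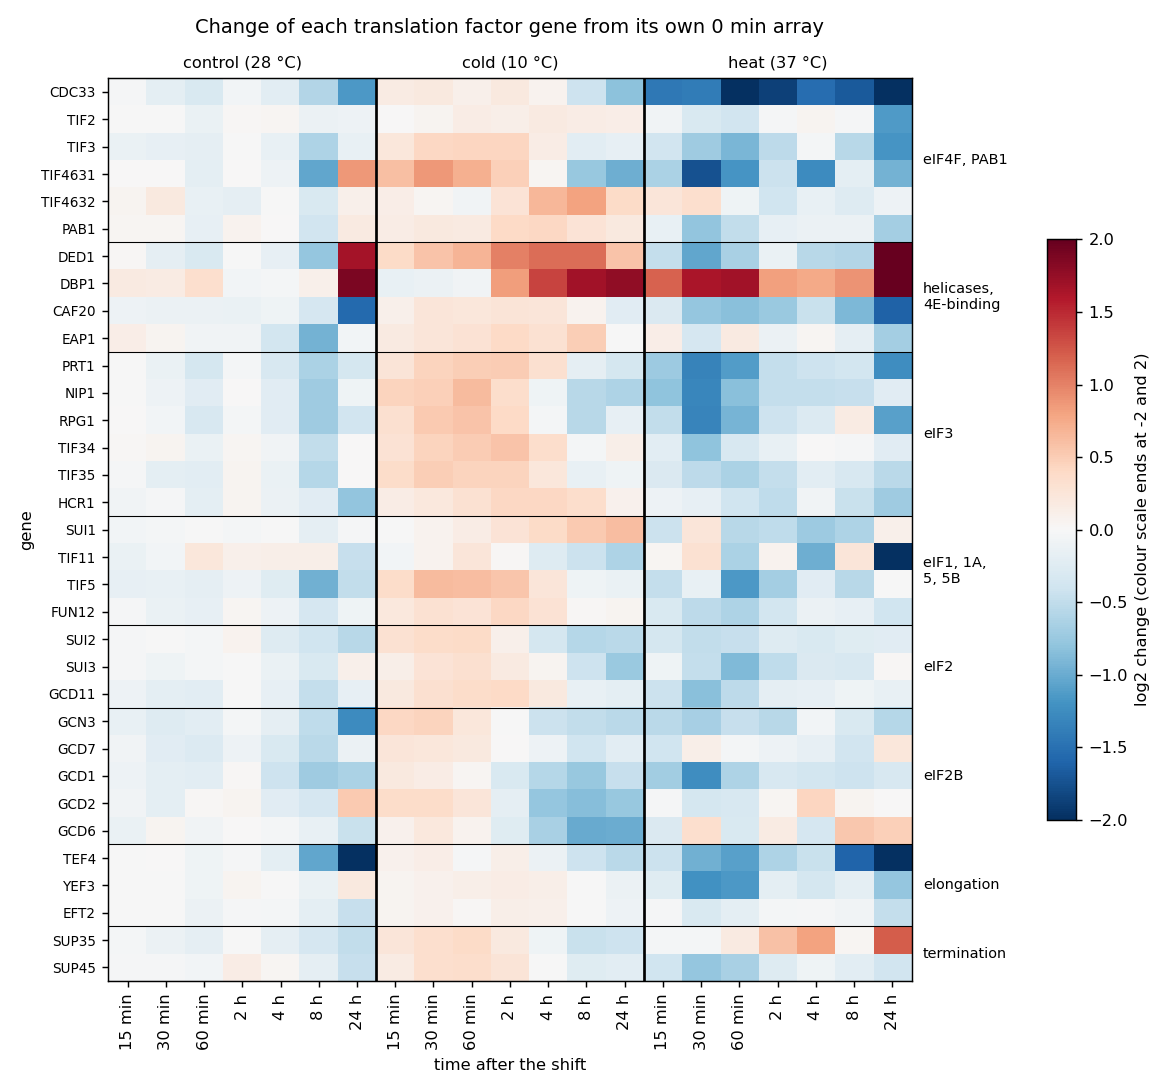
Log2 change from the series' own 0 min array (colour, ending at -2 and 2) for each of the 33 genes (vertical axis, grouped by role) at 7 times (horizontal axis) in the control, cold and heat series. Most genes are blue early in heat and red early in cold, while DBP1 is red in heat from 15 min on, and single genes such as TEF4 and DED1 stand out at 24 h.

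In the cap-binding complex, CDC33 encodes eIF4E, the subunit that binds the cap. CDC33 in heat stood at levels of 8.71 at 0 min, 7.28, 7.31 and 6.63 at 15, 30 and 60 min, 6.84, 7.18 and 7.03 at 2, 4 and 8 h, and 6.16 at 24 h, which is dim. The 60 min level, inside the early window, was close to the dim bound of 6.53. In the control CDC33 was between 12.93 and 13.52 up to 8 h and 12.37 at 24 h, and in cold it was between 13.16 and 13.77 up to 8 h and 12.76 at 24 h. Every heat array thus lay far below every control and cold array, the 0 min array included, and the heat levels lay in another part of the signal range. From its own start it was lower on each heat array, by values from -1.40 at 30 min to -2.55 at 24 h. The fitted changes were -1.46 ± 0.34 early (adjusted p = 0.389) and -1.40 ± 0.34 late (adjusted p = 0.331), not past the threshold. Heat against cold gave -1.79 ± 0.34 early (3.45-fold lower, adjusted p = 0.0103) and -1.63 ± 0.34 late (3.10-fold lower, adjusted p = 0.0255). The late difference lost its call without 30 min, without 4 h, in the fit of 2 series alone and with 24 h inside the late window.

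TIF4631 and TIF4632 encode the 2 forms of eIF4G, the scaffold that joins the cap-binding subunit to the ribosome. TIF4631 in cold had changes of 0.60, 0.86 and 0.71 at 15, 30 and 60 min, 0.47, 0.04 and -0.75 at 2, 4 and 8 h and -0.97 at 24 h. TIF4632 in cold had 0.13, 0.03 and -0.07 at 15, 30 and 60 min, 0.28, 0.67 and 0.81 at 2, 4 and 8 h and 0.38 at 24 h. The 2 scaffold genes therefore had their high arrays at different times in cold. TIF4631 in heat stood at -0.63, -1.74 and -1.17 in the early window, at -0.43, -1.26 and -0.19 in the late one and at -0.95 at 24 h, while its control stayed between -0.19 and 0.01 up to 4 h and then stood at -1.04 at 8 h and 0.87 at 24 h. TIF4632 in heat lay between -0.40 and 0.34 and in the control between -0.31 and 0.20 on all arrays, and these ranges overlapped. Heat against cold early was -1.90 ± 0.69 for TIF4631 (adjusted p = 0.0788) and 0.13 ± 0.26 for TIF4632 (adjusted p = 0.749), neither past the threshold. The difference between the 2 genes was not tested.

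**Figure D4:**
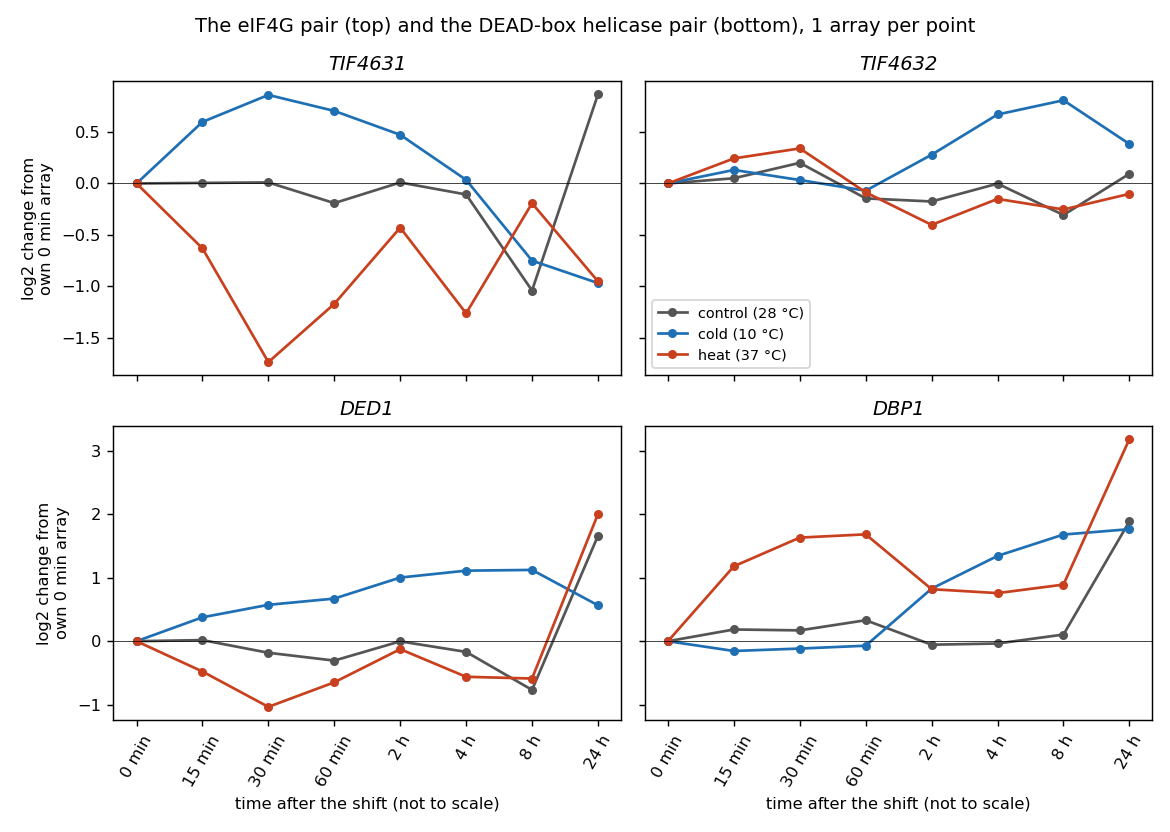
Log2 change from the series' own 0 min array (vertical axes) against time (horizontal axes, not to scale) for the eIF4G genes TIF4631 and TIF4632 and the helicase genes DED1 and DBP1, 1 line per series and 1 array per point. In cold TIF4631 is highest at 30 min (0.86) and TIF4632 at 8 h (0.81), and in heat DBP1 is at 1.63 at 30 min where DED1 is at -1.04.

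None of the other members of this class passed heat against cold in the early window. TIF2 (eIF4A, the helicase of the complex) stayed between -0.14 and 0.18 in the control and cold series and stood at -1.14 at 24 h in heat, apart from its other heat arrays (-0.38 to 0.05). TIF3 (eIF4B, a helper of eIF4A) stood at -0.38, -0.71 and -0.91 early in heat and at 0.22, 0.41 and 0.43 early in cold, on either side of the control (-0.17 to -0.13). PAB1, the poly(A)-binding protein, stood at -0.14, -0.79 and -0.49 early in heat and between 0.14 and 0.41 on all cold arrays after the start. For these 3 genes heat against cold early was -0.32, -1.02 and -0.65, with adjusted p-values of 0.330, 0.0568 and 0.154.

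DED1 and DBP1 encode related DEAD-box RNA helicases that unwind mRNA leaders during scanning. Early in heat the 2 helicase genes stood on opposite sides of their start. DED1 in heat had changes of -0.48, -1.04 and -0.65 at 15, 30 and 60 min, -0.13, -0.56 and -0.59 at 2, 4 and 8 h, and 2.00 at 24 h. DBP1 in heat had 1.18, 1.63 and 1.68 at the early times, 0.82, 0.76 and 0.89 at the late ones and 3.19 at 24 h. DBP1 levels in heat ran from 7.53 to 10.71, all above the dim bound.

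In the cold series both helicase genes ended higher, by different courses. DED1 in cold stood at 0.38, 0.57 and 0.67 early, at 1.00, 1.11 and 1.12 late and at 0.57 at 24 h. DBP1 in cold stood at -0.15, -0.12 and -0.07 early, below every early control array, then at 0.83, 1.34 and 1.68 late and at 1.77 at 24 h. In the control DED1 lay between -0.77 and 0.02 and DBP1 between -0.06 and 0.33 up to 8 h, and at 24 h they stood at 1.66 and 1.89. At 24 h both genes were thus well above their start in the control and in heat.

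Fitted against the control, the late cold changes were 1.39 ± 0.38 for DED1 (adjusted p = 0.0750) and 1.28 ± 0.31 for DBP1 (adjusted p = 0.0632), and the early heat change of DBP1 was 1.27 ± 0.31 (adjusted p = 0.436), none past the threshold. Early in cold DED1 had 0.70 ± 0.38 (adjusted p = 0.587). Heat against cold passed early for both, at -1.26 ± 0.38 for DED1 (2.40-fold lower, adjusted p = 0.0430) and 1.61 ± 0.31 for DBP1 (3.06-fold higher, adjusted p = 0.0106). The late difference passed for DED1 at -1.50 ± 0.38 (2.84-fold lower, adjusted p = 0.0404). Of these, DED1 lost the early call without 30 min, without 60 min and without 4 h and the late call without any one of 15 min, 30 min, 60 min, 4 h and 8 h, and DBP1 lost the early call without 30 min (adjusted p = 0.0515). The late change of DBP1 in heat, 0.82 ± 0.31 (adjusted p = 0.820), turned to -0.30 without the 0 min baseline, since its heat array stood 1.12 below the control at 0 min. Without that baseline its early heat change was 0.15 (adjusted p = 0.390) and its early heat against cold difference 0.82 (adjusted p = 0.000435). The early levels of DBP1 were 8.71, 9.16 and 9.21 in heat and 8.83, 8.81 and 8.97 in the control.

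CAF20 and EAP1 encode proteins that bind eIF4E and compete with eIF4G. CAF20 in heat stood at -0.28, -0.77 and -0.83 early, at -0.75, -0.44 and -0.90 late and at -1.62 at 24 h, below the control (-0.34 to -0.08) in both windows. Its cold changes were 0.10, 0.24 and 0.22, then 0.26, 0.24 and 0.06, and -0.23 at 24 h, and its control stood at -1.55 at 24 h. EAP1 in heat stood at 0.13, -0.33 and 0.19, then -0.12, 0.03 and -0.18, and -0.69 at 24 h, overlapping its control up to 4 h (-0.37 to 0.13). Over the same times EAP1 in cold was between 0.19 and 0.49 up to 8 h, while its control stood at -0.95 at 8 h. In the early window heat against cold was -0.81 ± 0.28 for CAF20 (adjusted p = 0.0657) and -0.25 ± 0.37 for EAP1 (adjusted p = 0.680).

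The subunits of eIF3, the large scaffold on the small ribosomal subunit, were lower early in heat and higher early in cold, with medians over 6 genes of -1.06 and 0.46 at 30 min. PRT1 in heat stood at -0.72, -1.33 and -1.12 early, at -0.48, -0.42 and -0.37 late and at -1.24 at 24 h, and in cold at 0.26, 0.44 and 0.50, then 0.51, 0.32 and -0.18, and -0.35. NIP1 in heat stood at -0.80, -1.31 and -0.83, then -0.47, -0.48 and -0.46, and -0.23, and in cold at 0.44, 0.48 and 0.64, then 0.36, -0.09 and -0.55, and -0.61. In the control PRT1 lay between -0.35 and -0.01 and NIP1 between -0.22 and 0.01 up to 4 h, and at 8 h they stood at -0.64 and -0.71. The early arrays of the 3 series did not overlap for either gene.

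Heat against cold early was -1.46 ± 0.36 for PRT1 (2.75-fold lower, adjusted p = 0.0225) and -1.50 ± 0.35 for NIP1 (2.82-fold lower, adjusted p = 0.0186). PRT1 lost this call without 30 min, without 60 min and without 4 h, and NIP1 lost it without 30 min (adjusted p = 0.0743). RPG1 had a similar early course in heat (-0.50, -1.32 and -0.93) with a wider error in the test (-1.38 ± 0.53, adjusted p = 0.0940). TIF34 and TIF35 stood at -0.80 and -0.52 at 30 min in heat and at 0.45 and 0.49 at 30 min in cold. TIF35 had the smallest p of the 33 genes early in cold, at 0.57 ± 0.30 (adjusted p = 0.579), with cold changes of 0.36, 0.49 and 0.44 early, 0.45, 0.22 and -0.15 late and -0.08 at 24 h. Its heat changes were -0.29, -0.52 and -0.64, then -0.47, -0.22 and -0.31, and -0.53, and its control lay between -0.57 and 0.05. HCR1, a loosely bound subunit that also acts in termination and recycling, was the flattest of the 6 early in heat, at -0.10, -0.16 and -0.40.

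Among the factors of scanning and subunit joining, heat values were uneven from array to array. TIF11 (eIF1A) in heat stood at 0.04, 0.30 and -0.64 early, at 0.06, -0.97 and 0.25 late and at -2.37 at 24 h, a level of 6.76 that is close to the dim bound. Its control stayed between -0.13 and 0.22 up to 8 h with -0.46 at 24 h, and its cold values were -0.05, 0.07 and 0.24, then 0.03, -0.25 and -0.42, and -0.62. The heat arrays of TIF11 thus had no common direction before 24 h. SUI1 (eIF1, which guards start codon choice) lay between -0.72 and 0.24 in heat and stood in cold at 0.07 at 30 min, 0.27 at 2 h and 0.61 at 24 h, with a late cold change of 0.46 ± 0.33 (adjusted p = 0.470). TIF5 (eIF5, which triggers GTP hydrolysis by eIF2) stood at 0.37, 0.63 and 0.62 early in cold and at -0.48, -0.15 and -1.16 early in heat. FUN12 (eIF5B) stood at 0.20, 0.30 and 0.28 in cold and at -0.30, -0.52 and -0.62 in heat. The levels of SUI1, TIF11 and TIF5 on the heat 0 min array differed from the control by -3.56, -3.92 and -3.34, so their heat changes were read from a lower part of the signal range.

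The 3 subunits of eIF2, which carries the initiator tRNA, were above their start early in cold and below it early in heat. SUI3 in heat stood at -0.08, -0.47 and -0.88 early, at -0.51, -0.29 and -0.32 late and at 0.02 at 24 h. Its cold values were 0.12, 0.27 and 0.32, then 0.18, 0.06 and -0.41, and -0.75, and its control lay between -0.31 and 0.10. SUI2 and GCD11 stood at -0.48 and -0.83 at 30 min in heat and at 0.37 and 0.32 at 30 min in cold. The early difference of heat from cold was -0.79 ± 0.25 for SUI2 (adjusted p = 0.0553), -0.89 ± 0.28 for GCD11 (adjusted p = 0.0517) and -0.71 ± 0.37 for SUI3 (adjusted p = 0.199), none past the threshold.

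The 5 genes of eIF2B, the nucleotide exchange factor of eIF2, were above their start early in cold and below it from 4 h on. Their median in cold was 0.24, 0.23 and 0.19 at 15, 30 and 60 min, -0.18, -0.57 and -0.76 at 2, 4 and 8 h and -0.54 at 24 h. In the control their median was also below the start late in the course, at -0.23, -0.51 and -0.44 at 4, 8 and 24 h. GCD2 in cold stood at 0.36, 0.37 and 0.24, then -0.18, -0.78 and -0.85, and -0.76 at 24 h. Its control stood at -0.06, -0.19 and 0.03, then 0.06, -0.23 and -0.34, and 0.52 at 24 h, and its heat values were -0.02, -0.35 and -0.32, then 0.05, 0.42 and 0.05, and 0.00. From early to late in cold GCD2 fell by 0.83 ± 0.23 (1.78-fold, adjusted p = 0.0250), and the other 4 had values of -0.64 for GCN3, -0.26 for GCD7, -0.47 for GCD1 and -0.75 for GCD6, with adjusted p-values between 0.0623 and 0.309. GCD2 lost the call without 15 min, 30 min, 4 h or 8 h (adjusted p from 0.0770 to 0.118).

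Within eIF2B the heat values differed among subunits. GCD1 in heat stood at -0.69, -1.24 and -0.62 early, at -0.32, -0.37 and -0.41 late and at -0.32 at 24 h. Its cold changes were 0.19, 0.15 and 0.03, then -0.30, -0.57 and -0.76, and -0.46, and its control lay between -0.71 and 0.02. GCN3, the regulatory subunit that is not essential for growth, stood in heat at -0.54, -0.67 and -0.46, then -0.56, -0.06 and -0.31, and -0.58. Its cold values were 0.41, 0.45 and 0.23, then -0.01, -0.43 and -0.50, and -0.54, and its control lay between -0.51 and -0.04 up to 8 h with -1.25 at 24 h. GCD7 and GCD6 had heat values of both signs in the early window (-0.39 to 0.12 and -0.30 to 0.33). Early in heat the fitted change of GCD1 was -0.68 ± 0.31 (adjusted p = 0.590).

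Among the elongation factors TEF4 and YEF3 were lower early in heat and EFT2 less so. TEF4, a subunit of the exchange factor of eEF1A, stood in heat at -0.42, -0.95 and -1.09 early, at -0.61, -0.45 and -1.60 late and at -2.87 at 24 h. Its control stood between -0.19 and 0.00 from 15 min to 4 h, at -1.04 at 8 h and at -2.41 at 24 h, and its cold values were 0.09, 0.13 and -0.03, then 0.11, -0.12 and -0.42, and -0.53. At 8 and 24 h TEF4 was thus low in the control as well as in heat. YEF3, the fungal elongation factor eEF3, stood in heat at -0.25, -1.21 and -1.15 early and -0.20, -0.35 and -0.20 late, and EFT2 (eEF2, which moves the ribosome by a codon) at -0.03, -0.30 and -0.20 early. Early heat set against early cold gave -0.89 ± 0.34 for TEF4 (adjusted p = 0.0911), -0.95 ± 0.36 for YEF3 (adjusted p = 0.0900) and -0.23 ± 0.20 for EFT2 (adjusted p = 0.444).

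The 2 release factor genes had different courses in heat. SUP45 encodes eRF1, which reads the stop codon, and SUP35 encodes its GTPase partner eRF3, the protein of the yeast prion PSI. SUP45 in heat stood at -0.40, -0.78 and -0.65 early, at -0.25, -0.09 and -0.20 late and at -0.38 at 24 h, while SUP35 in heat stood at -0.04, -0.04 and 0.18, then 0.58, 0.81 and 0.05, and 1.21. In cold both had similar values, 0.16, 0.33 and 0.34 early for SUP45 and 0.25, 0.33 and 0.39 for SUP35, then 0.25, 0.00 and -0.25 for SUP45 and 0.19, -0.08 and -0.44 for SUP35, and -0.21 and -0.41 at 24 h. The control of SUP45 lay between -0.18 and 0.15 and that of SUP35 between -0.34 and 0.00 up to 8 h, with -0.47 and -0.50 at 24 h. Heat against cold early was -0.89 ± 0.27 for SUP45 (1.85-fold lower, adjusted p = 0.0460) and -0.29 ± 0.26 for SUP35 (adjusted p = 0.467). SUP45 lost this call without 30 min, 60 min or 4 h (adjusted p from 0.0907 to 0.155) and without the 0 min baseline (-0.23, adjusted p = 0.136). The difference between the 2 genes was not tested.

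In the culture left at 28 °C, the 24 h array was set against the 6 arrays from 0 min to 4 h. TEF4 was 5.14-fold lower, CAF20 2.75-fold and GCN3 2.16-fold, while DBP1 was 3.46-fold higher, DED1 3.41-fold and TIF4631 1.88-fold. Of the 33 genes 5 were higher (39.1% of all genes were) and 13 lower (39.0% of all genes were). Both the number higher and the number lower have to be read against a culture in which most genes had changed. The fitted changes were -2.36 ± 0.09 for TEF4 (adjusted p = 9.1e-08), -1.46 ± 0.08 for CAF20 (4.42e-07), -1.11 ± 0.11 for GCN3 (1.5e-05), 0.91 ± 0.10 for TIF4631 (3.04e-05), 1.77 ± 0.13 for DED1 (2.62e-06) and 1.79 ± 0.15 for DBP1 (5.01e-06). A single 24 h array stands behind each of these, so the errors cover the spread of the 6 early arrays and not that of a repeated 24 h culture.

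The other calls at 24 h came from several roles. CDC33 fell by 1.01 ± 0.12, HCR1 by 0.74 ± 0.10, SUI2 by 0.52 ± 0.12 and TIF11 by 0.50 ± 0.13, while SUP45, GCD1, EFT2, SUP35, GCD6 and TIF5 fell by values between 0.36 (TIF5) and 0.48 (SUP45). GCD2 rose by 0.59 ± 0.12 and YEF3 by 0.20 ± 0.08 (adjusted p = 0.0376). The 15 genes that did not pass had values from -0.28 (RPG1) to 0.17 (PAB1), and 5 of the 6 eIF3 genes were among them.

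**Figure D5:**
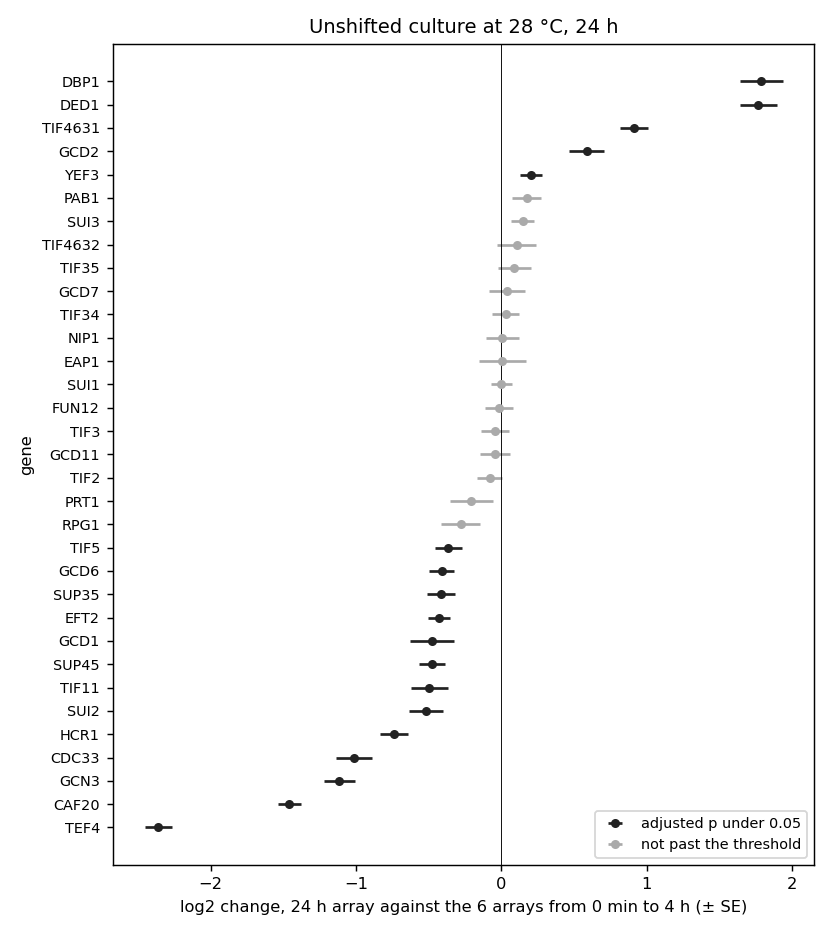
Log2 change of the 24 h array of the unshifted culture against its 6 arrays from 0 min to 4 h (horizontal axis, points with standard error bars) for the 33 genes (vertical axis, ordered by value). Black points passed the test at an adjusted p under 0.05, 5 higher and 13 lower, from TEF4 at -2.36 to DBP1 at 1.79.

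At 24 h few of the genes stood far from their start in the cold. In cold 1 of the 33 genes, DBP1, was at least 2-fold from its own 0 min array (26.9% of all genes were). The control had 6 such genes (40.8% of all genes), with DED1 and DBP1 higher and CDC33, CAF20, GCN3 and TEF4 lower. Heat had 11 (33.8% of all genes), 3 higher (DED1, DBP1 and SUP35) and 8 lower. These counts come from single arrays and have no test.

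Other genes of the translation apparatus had changes of other sizes on the same arrays. The 68 ribosome biogenesis genes had a median change of -2.67 at 30 min in heat and 1.34 at 30 min in cold, and 68 of 68 were negative early in heat and positive early in cold. The 128 cytosolic ribosomal protein genes had medians of -0.87 at 30 min and -1.45 at 60 min in heat, and between 0.01 and 0.03 over the first hour in cold, where the translation factor genes stood at 0.19 to 0.28. At 24 h in cold the ribosomal protein median was -0.92 and that of the translation factor genes -0.20. Heat against cold early called 65 of the 68 biogenesis genes lower, 10 of the 128 ribosomal protein genes lower and 0 of either list higher, where 8.42% of all genes were lower and 7.82% higher. The share of ribosomal protein genes called lower was thus close to that of all genes. The differences between these lists were not tested.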

How the data were processed

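The authors deposited 1 log2 value per probe set and array, made with RMA, per the submitters' processing notes. Neither its version nor joint processing of the arrays is stated in these sources. Since RMA equalises signal distributions, a change of total mRNA per cell cannot be seen, and changes of dim probe sets are understated. Total RNA was purified with a yeast RNA kit, and control and cold samples were amplified with an Ambion kit, heat samples with a Roche kit combined with it, per the labels' protocols.

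Of 10928 probe sets 5498 have 1 *S. cerevisiae* gene in the platform annotation, 1 has several and 1746 belong to other species. Probe sets of the 47 genes with more than 1 were averaged, giving 5449 genes. Gene lengths were taken from RefSeq's table for R64, whose coordinates were not used.

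Each time and temperature has 1 array, and arrays of a window stand in for replicates, so p-values measure the spread between times and not between cultures. Limma 3.58.1 in R 4.3.3 (lmFit and eBayes) was fitted to all 24 arrays, with time as a block and terms for heat and cold at 0 min, in the early window, in the late window and at 24 h (8 residual and 3.41 prior degrees of freedom). Heat and cold changes are differences from the time-matched control minus that at 0 min, and share the control arrays. Heat against cold and late against early are contrasts of the same fit, and late against early uses no 0 min array. A fit of the control series set 24 h against 0 min to 4 h, with a term of its own for 8 h. P-values were adjusted by Benjamini-Hochberg over 5449 genes, with a threshold of 0.05. The fits were also run on simulated data with independent noise and no 0 min difference between series. The heat arrays do have such a difference, so that run does not measure the errors here. The number of arrays limits the precision.

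All 36 genes are named. Values on the arrays are given for genes past the threshold in a comparison (the 3 highest and 3 lowest where over 6), for the 2 with the smallest p where fewer than 2 passed, for the member of each role with the largest change, and for the partners of CDC33. Members and lists were chosen with earlier results of these data known. The alternatives were no 0 min baseline, 24 h inside the late window, 2 series alone, renewed quantile normalization, a filter on the 177 dim genes, suffixed probe sets left out, array quality weights, and leaving out each time.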

Additional observations from a re-analysis of the deposited data

Results flagged for a closer look

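For 20 of the 99 combinations of gene and series, 1 of the 8 arrays lay apart from the rest, with a gap to its nearest neighbour of more than 0.526 of the whole range (Dixon's 95% bound for 8 values). Chance flags about 1 in 20 groups, and the 8 arrays are times of a course, not replicates. In the control series the 24 h array was the high one for DED1 (gap 0.677), DBP1 (0.801) and GCD2 (0.531). It was the low one for CAF20 (0.778), HCR1 (0.670), GCN3 (0.593), GCD6 (0.590), TEF4 (0.570) and EFT2 (0.568). The 8 h control array was the low one for TIF3 (0.720), EAP1 (0.539), NIP1 (0.675), TIF34 (0.659), TIF35 (0.586), SUI1 (0.691) and GCD11 (0.553). In heat the separate array was 0 min for CDC33 (the highest, 0.549), 24 h for DED1 (the highest, 0.659) and TIF2 (the lowest, 0.641), and 30 min for TIF34 (the lowest, 0.593).

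Heat and cold changes differed by limma's test for 6 genes early, CDC33 (-1.79), DED1 (-1.26), DBP1 (1.61), PRT1 (-1.46), NIP1 (-1.50) and SUP45 (-0.89), and for 2 late, CDC33 (-1.63) and DED1 (-1.50), each given as heat minus cold on the log2 scale. The 0 min heat array stood apart from control and cold for these genes too, from -4.81 for CDC33 to 0.84 for SUP45, and the part of the amplification kit in these differences was not tested.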

How the results depend on the processing

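The values followed through the alternatives were those of genes past the threshold or with the smallest p, picked as described above. Of these 1 reversed, DBP1 late in heat (-0.30 without the 0 min baseline). Other members were not part of that check. Early in heat 12 of the 33 were positive without the baseline, against 4 with it (59.5% and 54.5% of all genes). TIF4631 (0.82), TIF35 (1.08) and FUN12 (0.71) were then higher and passed the test, and were negative with the baseline. For translation factor genes the counts without the baseline were 23 early in heat (8 higher, 15 lower) and 25 late in heat (12 higher, 13 lower). They were 18 early in cold (17 higher, 1 lower) and 16 late in cold (16 higher, 0 lower). For heat against cold they were 24 early (4 higher, 20 lower) and 26 late (12 higher, 14 lower). The shares of all genes called were 73.3% (44.4% higher), 76.0% (46.1% higher), 32.7% (16.3% higher), 41.0% (22.0% higher), 77.9% (44.5% higher) and 76.0% (43.7% higher). With array quality weights 7, 3, 17, 16, 24 and 14 of the 33 were called in the same order, and 22 for cold late against early. The shares of all genes were then 12.3%, 4.07%, 33.2%, 51.3%, 50.1%, 40.5% and 76.4%. With 24 h inside the late window 1 and 0 of the 33 were called for heat against cold early and late and 1 for cold late against early. All genes had shares of 4.99%, 0.11% and 15.0% there. With 2 series alone the counts of the 33 were 0, 0 and 8, against 0%, 0% and 41.5% of all genes. Leaving out each time gave 0 to 2 of the 33 for cold late, and 1 to 13 and 0 to 4 for heat against cold early and late. It gave 1 to 7 for cold late against early, where TIF4632 was called in all but the fits without 15 min, 30 min and 4 h. The ranges over all genes are given below.

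Over all genes the counts without the baseline were 3994 early in heat, 4141 late in heat, 1784 early in cold, 2236 late in cold, 4245 and 4141 for heat against cold early and late. With array quality weights they were 672, 222, 1811, 2794, 2732 and 2209, and 197 and 4161 for late against early in heat and in cold. With 24 h inside the late window they were 0 and 1 for heat early and late, 272 and 6 for heat against cold early and late, and 4 and 815 for late against early in heat and in cold. With 2 series alone these 6 counts were 0, 0, 0, 0, 2 and 2263, and 7 for cold early. After renewed quantile normalization they were 0 for heat early, 1 for heat late, 47 for cold late and 2 for heat late against early, and with the filter on dim genes 3 for the last. Leaving out each time gave 0 to 4 for heat early, 0 to 32 for cold early, 0 to 418 for cold late, 163 to 1265 and 0 to 615 for heat against cold early and late, and 1 to 149 and 240 to 1782 for late against early in heat and in cold.

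The median of the 33 genes was -0.19 early in heat, 0.50 early in cold and 0.45 late in cold without the baseline, 0.20 late in cold with array weights, and 0.22 to 0.36 late in cold leaving out each time. Late in heat it turned from -0.09 to 0.15 without the baseline and to 0.07 without 2 h, and was -0.22 without 8 h. For heat against cold late it was -0.15 without the baseline, and for heat late against early 0.23 without 8 h. Of 360 comparisons of a followed value with an alternative, 300 kept direction and side of the threshold, 16 passed it newly and 43 lost it. The causes were not tested. Leaving out suffixed probe sets moved no count by over 1.5 times, and no alternative did so for the control 24 h counts. Arrays were matched by sampling time, the block of the fit, and the labels give no replicate numbers. Array signal limits CDC33 in heat, which is dim at 24 h and close to the dim bound at 60 min.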

Other observations

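The list of 19 other cytosolic translation factor genes also holds regulators, among them GCN4 and the coactivator MBF1, which act in transcription. In the unshifted culture at 24 h the fitted changes of the 19 ran from -1.33 to 3.57, with 8 positive and 11 negative. ANB1, the form of eIF5A known from low-oxygen cells, had log2 levels between 8.39 and 8.75 in the control up to 8 h and 12.16 at 24 h, a rise of 3.57 ± 0.13 (adjusted p = 6.48e-08). HYP2, its aerobic counterpart, lay between 13.93 and 14.05 and then at 13.41, a fall of 0.55 ± 0.08 (adjusted p = 0.00016). In heat ANB1 stayed dim up to 8 h, between 5.30 and 5.78. HEF3, a close relative of YEF3, rose from early to late in cold by 1.99 ± 0.67 (adjusted p = 0.0487), with levels from 8.12 at 0 min to 13.02 at 24 h, while its control went from 8.95 to 12.22. In the same comparison DOM34 had a change of -0.87 ± 0.21 (adjusted p = 0.0150). Of the 19 genes 1 was thus called higher (13.2% of all genes were) and 1 lower (11.5% of all genes were).

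Heat against cold early called 3 of the 19 lower and 1 higher, where 8.42% of all genes were lower and 7.82% higher. TIF6, an anti-association factor of the large subunit that also acts in its assembly, was 3.33-fold lower in heat than in cold (adjusted p = 0.00736), the eEF3-like NEW1 4.01-fold (0.0188) and the ribosome rescue factor DOM34 2.03-fold (0.0401), and the coactivator MBF1 was 2.60-fold higher (0.0409). The 8 mitochondrial translation factor genes had medians of the other sign from the cytosolic members, with 8 of 8 positive early in heat (median 0.33) and 7 of 8 negative early in cold (median -0.26), and 0 passed the test in either. MEF2, a mitochondrial recycling factor, stood in the control between 8.37 and 9.02 up to 8 h and at 11.86 at 24 h.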
